A study of Mus musculus with 4 samples.

Results

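The genes described here are 10 that code for apolipoproteins and other carrier proteins of blood plasma: *Apoa1*, *Apoa4*, *Apob*, *Apoc2*, *Apoe*, *Apom*, *Ttr*, *Rbp4*, *Afp* and *Trf*. They were chosen by name as secreted products of the visceral endoderm (VE), with earlier results of these data known. All 10 are listed in each of the count tables of the series. These tables list 16639 genes at the mid to late streak stage (MS-LS), 16341 at the no bud to early bud stage (OB-EB) and 18640 at the early head fold stage (EHF), with 15140 genes in all 3.

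The study traced *T*-expressing streak cells to the heart, and single-cell libraries were made from dissociated mouse embryos at 3 stages. All embryos had the genotype TnEGP-CreERT2/+; R26Rtdtomato/R26Rtdtomato, in which CreERT2 is driven from the *T* locus and tdTomato is the reporter. Tamoxifen was given at 0.08 mg per body weight by oral gavage, at E6+5h for MS-LS embryos collected at E6+21h, at E6+21h for OB-EB embryos collected at E7+3h, and at E7+7h for EHF embryos collected at E7+14h. The alleles and the drug were thus shared by all groups, and no group went without them. The time from tamoxifen to collection differed between the groups, longest for MS-LS, and cannot be told apart from stage.

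Each stage is 1 library of pooled embryos, so stage, pool and library cannot be told apart, and no comparison has a replicate check. The MS-LS library held 3635 cells and 17966956 unique molecular identifiers (UMIs, 1 for each captured transcript molecule). The OB-EB library held 3994 cells and 12181436 UMIs, and the EHF library 3494 cells and 20376539 UMIs. The median UMIs per cell were 4251, 2620.5 and 5584. EHF has a pair of tables that were equal in all 65128160 places, with 21 gene names spelled differently, and they were counted as 1 library. Libraries shared 18 barcodes between MS-LS and OB-EB, 12 between MS-LS and EHF and 14 between OB-EB and EHF, and 0 of these pairs had profiles correlated above 0.95.

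The visceral endoderm is the epithelium that surrounds the early mouse embryo, and it supplies the embryo before a liver or a circulation exists. It takes up maternal protein and lipid, packs lipid with apolipoprotein B into secreted particles, and releases carriers of vitamin A, thyroid hormone and iron that the liver makes later in life. The genes below are given in that order, first the proteins that build the particles, then small apolipoproteins that ride on them, then the carriers.

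Cells were clustered in each library without the 10 genes, and clusters were named by marker genes. Clusters 2, 11 and 14 of MS-LS, 13 and 14 of OB-EB and 1, 16 and 29 of EHF were VE-like. They held 544 cells (14.97%, 95% interval 13.8 to 16.2), 325 cells (8.14%, 7.31 to 9.03) and 333 cells (9.53%, 8.58 to 10.6). These exact binomial intervals, and the exact Poisson intervals of the UMI sums that follow, cover counting error only. Of the 12 VE markers, 11 were listed in each table and had UMIs in VE-like cells, and *Gkn2* was unlisted. Levels are given as counts per 1000000 UMIs of a class (CPM). Summed over the list, the VE markers were at 4620, 3901 and 6733 CPM in MS-LS, OB-EB and EHF VE-like cells, led by *Car4*, *Car4* and *Cited1*. In cells outside the endoderm the same list was at 352, 240 and 371 CPM, led by *Car4* at 266, 180 and 187. Single VE markers varied in VE-like cells: *S100g* was at 210, 264 and 1154 CPM and *Cited1* at 945, 872 and 1567. *Cubn* (945 and 836), *Dpp4* (139 and 114) and *Muc13* (34.9 and 25.5) were lower in EHF than in MS-LS, and the other listed markers were higher.

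Markers of other cell types were counted in the VE-like cells as well. The parietal endoderm list, which marks the other extraembryonic endoderm, was at 738 CPM in MS-LS (8 of 8 listed genes with UMIs, led by *Sparc*), 504 in OB-EB (8 of 8, led by *Col4a1*) and 943 in EHF (8 of 9, led by *Sparc*, with *Thbd* at 0). The embryonic endoderm list, which joins definitive and anterior visceral endoderm, was at 239, 256 and 170 CPM, led by *Sox17* in each library and with *Sfrp5* at 0 in EHF. The blood and endothelium list was at 48.6, 59.2 and 114 CPM, led by *Runx1*, with *Cdh5* and *Itga2b* at 0 in all 3 libraries. Lists for extraembryonic (Exe) ectoderm, mesoderm, epiblast and node were at 131 or less in each library. The VE, parietal and blood lists were thus highest in EHF, and their part in the results on stage was not tested.

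Promoters were read from RefSeq (GRCm38.p6) for the 8 of 10 genes with an entry, over the 250 bases before each start. *Ttr* and *Trf* had none. The window of *Apoa4* lies in annotated exons in all its bases and that of *Apom* in 249, so these hold transcribed sequence, and they remain among the 8. Both strands were searched for short motifs. For HNF1 factors this was GTTAAT, the core of their sites. The motif of HNF4 was CAAAGTCCA, while for FOXA factors TGTTTAC was used. Sites of the GATA family were searched as AGATAA, and the box bound by TBP as TATAAA. The sequences below are those of *Rbp4*, which had the highest ratio of EHF over OB-EB, of *Apoc2* and *Apob*, which had the lowest, and of *Afp*, which differed most between the large VE-like clusters of EHF. They are written 5′ to 3′ on the strand of the gene, without bases that lie in annotated exons, and capitals mark the motifs found. The *Apob* window is chr12:7977427-7977647 on the plus strand, where the last 29 of the 250 bases lie in the annotated *Apob* exon. The *Apoc2* window is chr7:19677942-19678082 on the minus strand, and its 109 bases farther upstream lie in an exon of the neighbour *Apoc4*. *Rbp4* has a distal start, shown at chr19:38125322-38125571, and a proximal start inside the gene, shown between exons at chr19:38124829-38124954, both on the minus strand. The *Afp* window is chr5:90490464-90490713 on the plus strand.
Apob: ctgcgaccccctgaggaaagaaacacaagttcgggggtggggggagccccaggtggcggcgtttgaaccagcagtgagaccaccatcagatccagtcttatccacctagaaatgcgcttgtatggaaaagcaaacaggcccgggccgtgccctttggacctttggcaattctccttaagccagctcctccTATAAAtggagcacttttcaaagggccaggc
Apoc2: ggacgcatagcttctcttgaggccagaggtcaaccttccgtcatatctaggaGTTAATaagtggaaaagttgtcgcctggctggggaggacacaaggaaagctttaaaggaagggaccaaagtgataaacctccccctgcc
Rbp4, distal start: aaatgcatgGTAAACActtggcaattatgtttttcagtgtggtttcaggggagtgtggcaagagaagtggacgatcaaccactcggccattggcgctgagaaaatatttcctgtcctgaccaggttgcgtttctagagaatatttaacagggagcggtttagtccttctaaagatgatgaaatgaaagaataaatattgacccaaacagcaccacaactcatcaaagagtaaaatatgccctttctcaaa
Rbp4, proximal start: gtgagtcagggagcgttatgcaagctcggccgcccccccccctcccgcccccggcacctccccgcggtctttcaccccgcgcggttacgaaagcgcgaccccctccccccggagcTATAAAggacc
Afp: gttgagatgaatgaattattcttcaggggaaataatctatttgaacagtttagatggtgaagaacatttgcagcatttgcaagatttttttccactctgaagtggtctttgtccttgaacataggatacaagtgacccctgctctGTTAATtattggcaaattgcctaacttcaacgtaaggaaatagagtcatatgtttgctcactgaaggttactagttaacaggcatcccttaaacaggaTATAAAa

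GTTAAT was found in 3 of the 8 genes with an entry, *Afp*, *Apoc2* and *Apoe*, and in 6.43% of all 32851 promoters in the table. It began 105 bases before the start of *Afp* and 89 bases before that of *Apoc2*. TATAAA was found in 4 genes, *Afp*, *Apob*, *Apoe* and *Rbp4*, and in 12.4% of all promoters. It began 60 bases before the start of *Apob* and 28 bases before the proximal start of *Rbp4*. TGTTTAC was found in *Rbp4*, 241 bases before the distal start and on the other strand, and in 3.17% of all promoters. CAAAGTCCA and AGATAA were found in 0 of the 8, with 0.384% and 9.99% of all promoters holding them. The counts of genes and the shares of promoters are unlike, since a gene with several starts has several windows: the 8 genes have 11, with 3 for *Apoe* and 2 for *Rbp4*. GTTAAT was in 1 of the windows of *Apoe*, of which 173 bases are exon. These matches describe letters in the windows and say nothing of binding.

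Together the 10 genes took 1.92% of all UMIs of VE-like cells in MS-LS, 2.02% in OB-EB and 3.61% in EHF. As CPM these sums were 19230 (95% interval 19071 to 19389), 20217 (19963 to 20473) and 36083 (35834 to 36333). The assay reads 3′ ends and counts each molecule once, so these values are not scaled by transcript length, and the order of the genes by level also carries how well each 3′ end was captured. By group, the particle proteins summed to 5472, 5167 and 8297, the small apolipoproteins to 6652, 7106 and 11949, and the carriers to 7105, 7943 and 15837 CPM. All 3 groups were highest in EHF, and the carriers made up the largest sum in each library.

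**Figure D1:**
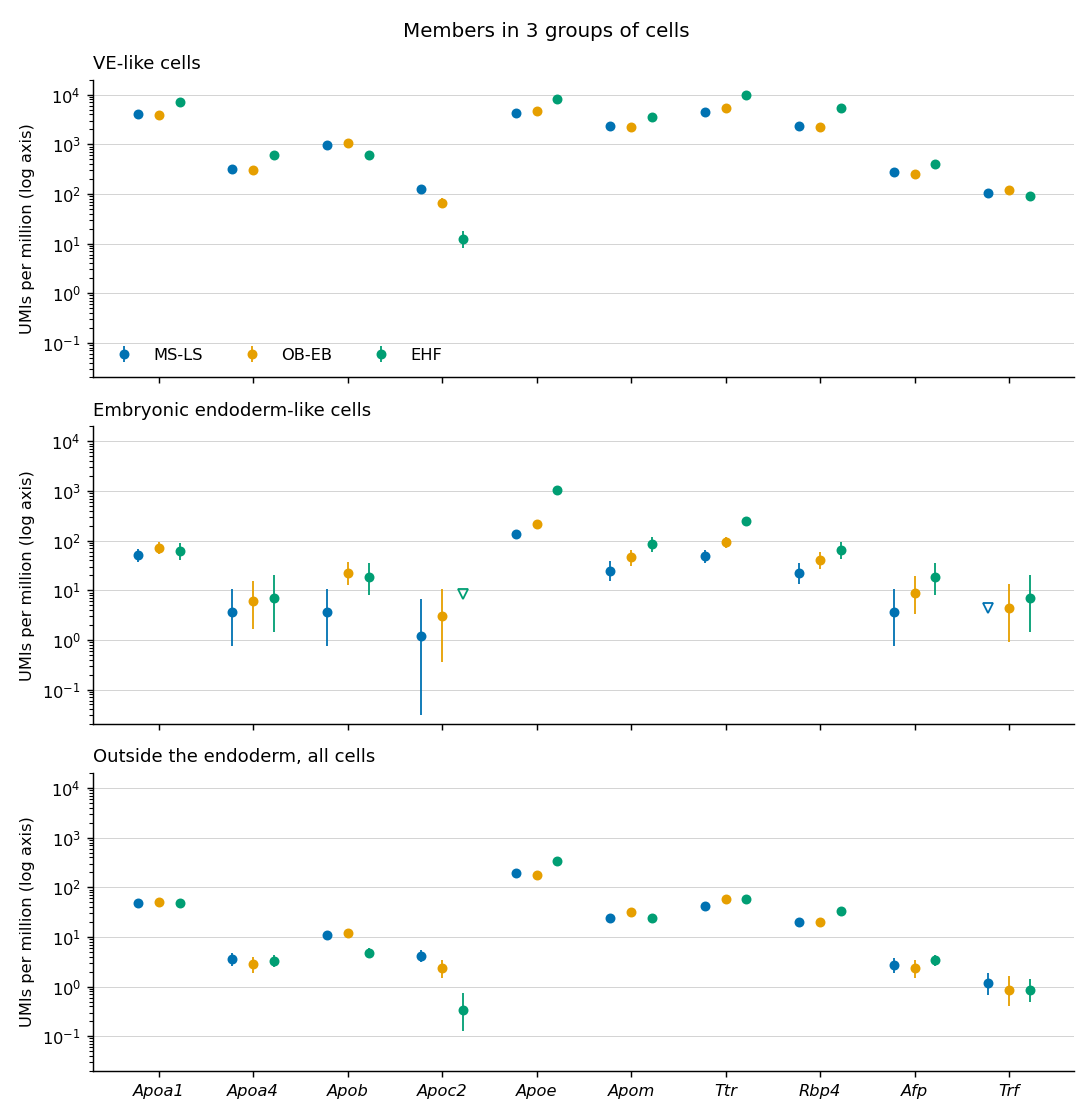
CPM (log axis) of the 10 genes in VE-like cells, in embryonic endoderm-like cells and in all cells outside the endoderm, by library. Points are pooled levels, bars are 95% counting intervals and open triangles mark the upper bound where no UMI was found; in VE-like cells *Ttr* reached 9849 in EHF, and *Apoc2* was lowest there at 12.1.

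*Apoa1* codes for the main protein of high-density lipoprotein. Its level in VE-like cells was 4173 CPM in MS-LS (4099 to 4248), 3829 in OB-EB (3719 to 3941) and 7090 in EHF (6981 to 7202). *Apoa4*, a chylomicron and high-density lipoprotein component encoded close to *Apoa1*, was at 315 (295 to 337), 298 (268 to 330) and 607 (575 to 640). For both genes EHF was the highest library, and its interval did not overlap those of the earlier stages. *Apob*, the structural protein around which each particle is built, was at 984 (948 to 1020), 1041 (984 to 1100) and 599 (567 to 632). *Apob* was lowest in EHF, the reverse of its group, while its MS-LS and OB-EB intervals overlapped.

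*Apoc2*, the cofactor that lipoprotein lipase needs, was at 124 CPM in MS-LS (112 to 138; 363 UMIs), 66.7 in OB-EB (52.9 to 83.0; 80 UMIs) and 12.1 in EHF (7.95 to 17.6; 27 UMIs). Its level was lower at each later stage, and no pair of these intervals overlapped. *Apoe*, the ligand by which particles bind receptors of the LDL receptor family, was at 4230 (4155 to 4305), 4785 (4662 to 4911) and 8319 (8199 to 8439). *Apom*, which carries sphingosine 1-phosphate in high-density lipoprotein, was at 2298 (2244 to 2354), 2254 (2170 to 2341) and 3618 (3540 to 3698). Both were highest in EHF. Reads of *Apoc2* are uncertain in 1 respect: the GENCODE annotation of GRCm38 holds a protein-coding gene, *Gm44805*, that overlaps *Apoc2* on the same strand. Whether *Gm44805* was in the annotation used for counting was not checked, so how reads of the shared part were counted is not known.

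*Ttr* codes for transthyretin, the carrier of thyroid hormone and, with retinol-binding protein, of vitamin A. It was at 4401 CPM in MS-LS (4325 to 4478), 5352 in OB-EB (5222 to 5485) and 9849 in EHF (9720 to 9980). This was the highest level of the 10 genes in the pooled VE-like cells of each library. Single clusters differed: *Apoa1* led in MS-LS cluster 2, at 5445 against 5267 for *Ttr*, and *Apoe* in cluster 14, at 3513 against 3155. *Rbp4*, the retinol-binding protein itself, was at 2317 (2262 to 2372), 2226 (2142 to 2312) and 5494 (5397 to 5592). These partners in retinol transport were both highest in EHF. *Afp*, alpha-fetoprotein, the main serum protein of the fetus, was at 282 (263 to 302), 247 (220 to 277) and 403 (377 to 430). *Trf*, transferrin, which carries iron, was at 105 (93.7 to 118), 118 (99.0 to 139) and 91.6 (79.5 to 105). The intervals of *Trf* overlapped between MS-LS and each later library, so no difference from MS-LS was detectable for it at this depth. *Trf* overlaps *Gm20425* on the same strand, and its counts carry the same uncertainty as those of *Apoc2*.

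The first comparison asks how the levels in VE-like cells differed between stages, as log2 ratios of CPM with an exact conditional binomial 95% interval. Between MS-LS and OB-EB the genes other than *Apoc2* lay close together. *Ttr* had a log2 ratio of 0.28 (0.24 to 0.33) and *Apoe* 0.18 (0.13 to 0.22), OB-EB over MS-LS. *Apoa1* was at −0.12 (−0.17 to −0.08) and *Apoc2* at −0.90 (−1.27 to −0.55). The intervals of the other genes reached 0, from −0.19 for *Afp* to 0.16 for *Trf*. None of the 10 was past 2-fold, against 2.24% of all 4643 genes with at least 100 UMIs that were higher by 2-fold and 3.06% that were lower. *Apoc2* passed 2-fold on the lower side at a clustering resolution of 2, where 3.05% of all genes did so. It also passed when each cell weighed equally, where 3.27% of all genes were lower by 2-fold. The median log2 ratio of the 10 was −0.04, and that of all genes −0.12. Relative to that median, *Apoa1* was at −0.01 and *Apoc2* at −0.78.

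From OB-EB to EHF the levels moved apart. *Rbp4* had the highest log2 ratio, 1.30 (1.24 to 1.36), followed by *Apoa4* at 1.03 (0.86 to 1.20). *Apoa1* was at 0.89 (0.84 to 0.94), *Ttr* at 0.88 (0.84 to 0.92) and *Apoe* at 0.80 (0.75 to 0.84). *Afp* and *Apom* were also higher, at 0.71 (0.52 to 0.90) and 0.68 (0.62 to 0.75). The lower genes were *Apoc2* at −2.47 (−3.15 to −1.82), *Apob* at −0.80 (−0.91 to −0.68) and *Trf* at −0.36 (−0.68 to −0.04).

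Past 2-fold, 2 of the 10 genes were higher in EHF than in OB-EB, *Apoa4* and *Rbp4*, where 9.43% of 4179 genes were higher by as much. On the lower side 1 gene, *Apoc2*, was past 2-fold, against 5.29% of all genes. *Apoa4* fell below 2-fold at resolution 8, in cells with at least 2000 UMIs and with a gate on at least 4 VE markers. *Rbp4* stayed past it, where 8.77%, 8.87% and 9.37% of all genes were higher. The median log2 ratio was 0.75 for the 10 genes and 0.17 for all genes. Relative to the median of all genes, *Rbp4* was at 1.13, *Apoa4* at 0.86, *Apoa1* at 0.72, *Ttr* at 0.71, *Apob* at −0.97 and *Apoc2* at −2.64. On this scale 1 of the 10 genes was past 2-fold in each direction, against 5.34% of all 4179 genes higher and 7.27% lower. *Apob* was lower than the median gene by nearly as much as *Rbp4* was higher.

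Across the whole interval, EHF over MS-LS, the carriers *Rbp4* and *Ttr* had the highest log2 ratios, 1.25 (1.20 to 1.29) and 1.16 (1.13 to 1.19). *Apoe* was at 0.98 (0.94 to 1.01), *Apoa4* at 0.94 (0.82 to 1.07) and *Apoa1* at 0.76 (0.73 to 0.80). *Apom* and *Afp* were at 0.65 (0.61 to 0.70) and 0.51 (0.38 to 0.65). *Trf* was at −0.20 (−0.46 to 0.06), an interval that holds 0. *Apob* was lower, at −0.72 (−0.81 to −0.62), and *Apoc2* was at −3.36 (−3.99 to −2.80), which is 10.3-fold lower in EHF. Past 2-fold, 2 of the 10 were higher, *Ttr* and *Rbp4*, where 3.42% of 5411 genes were higher, and 1 was lower, *Apoc2*, where 3.99% were lower. The median log2 ratio was 0.71 for the 10 and 0.02 for all genes. With the unnamed MS-LS cluster 15, described below, counted as VE-like, 4 of the 10 were higher by 2-fold, *Apoa4*, *Apoe*, *Ttr* and *Rbp4*, against 4.20% of 5616 genes.

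The shift of all genes also sets how many pass 2-fold in each direction. For OB-EB over MS-LS, 104 genes were higher and 142 lower, and 134 and 85 after the median of all genes was subtracted. For EHF over OB-EB, 394 were higher and 221 lower, and 223 and 304 after that step. All 3 comparisons reuse the same libraries, so their values for a gene are not independent of each other.

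**Figure D2:**
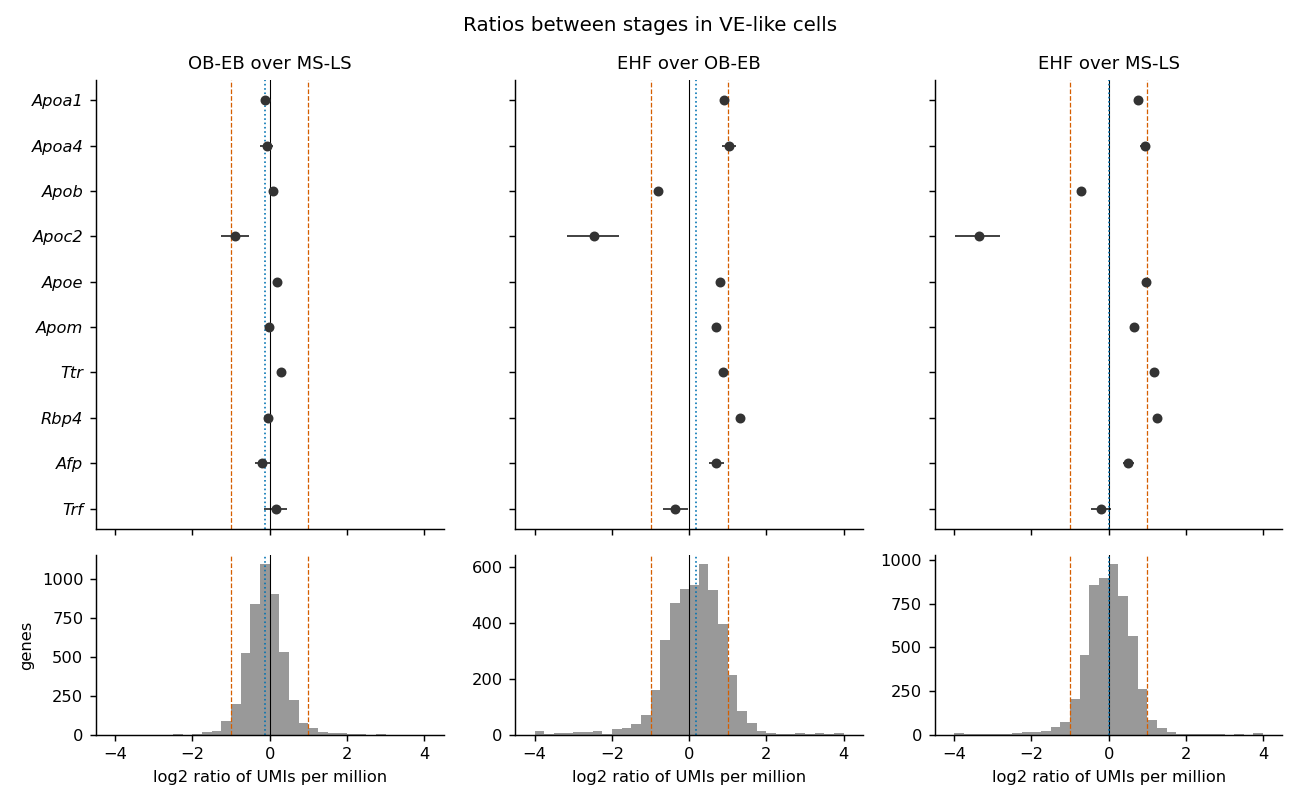
Log2 ratios between stages in VE-like cells for each of the 10 genes (upper panels, bars are 95% counting intervals) above histograms of all genes with at least 100 UMIs (lower panels). Dashed lines mark 2-fold and dotted lines the median of all genes; *Apoc2* lies at −2.47 and *Rbp4* at 1.30 in EHF over OB-EB.

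Other genes of the same processes were read from lists, with counts past 2-fold among the genes with at least 100 UMIs. For comparison, the shares of all genes higher and lower by 2-fold and their median log2 ratio were 2.24%, 3.06% and −0.12 for OB-EB over MS-LS, 9.43%, 5.29% and 0.17 for EHF over OB-EB, and 3.42%, 3.99% and 0.02 for EHF over MS-LS. Of 10 other apolipoproteins, 8 were listed in each library, and 0 of the 4, 3 and 4 genes counted in the comparisons were past 2-fold. *Apoa2*, a second protein of high-density lipoprotein, was at 428, 498 and 749 CPM in MS-LS, OB-EB and EHF, and *Apoc3*, an inhibitor of lipoprotein lipase, at 79.5, 73.4 and 136. *Apoc1*, a neighbour of *Apoc2* and *Apoe*, was at 406, 538 and 475. None of these was lowest in EHF. *Apoc4*, the nearest neighbour of *Apoc2* and named after its values were seen, was lowest there, at 23.3, 27.5 and 14.3, with a log2 ratio of −0.70 (−1.36 to −0.08) for EHF over MS-LS. The EHF interval of *Apoc4* (9.78 to 20.2) overlapped those of both earlier stages, and it had too few UMIs to be counted in EHF over OB-EB. *Gm44805* also spans *Apoc4*, so the same doubt applies to its counts. *Apoa5* and *Clu*, with too few UMIs to be counted and also named after their values were seen, were highest in EHF, at 7.19, 5.84 and 20.1 and at 5.48, 6.67 and 16.1, though the OB-EB and EHF intervals of *Clu* overlapped. The median log2 ratio of the list for EHF over OB-EB was 0.59 over 3 genes counted.

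Of 14 genes of lipoprotein assembly and secretion 12 were listed in OB-EB, 10 were counted and 4 were higher by 2-fold, with 0 lower and a median log2 ratio of 0.88, where 9.43% of all genes were higher and their median was 0.17. These 4, named after their values were seen, were *Pla2g12b* (2.02, also a VE marker), the sterol acyltransferase gene *Soat2* (1.26), the lipid droplet gene *Plin2* (1.14) and *Sar1b* (1.07), a GTPase of the coat that carries large particles out of the endoplasmic reticulum. Relative to the median of all genes *Plin2* and *Sar1b* were below 2-fold. *Pla2g12b* and *Soat2* stayed past it, where 5.34% of all genes were higher. *Pla2g12b*, *Soat2* and *Sar1b* were lowest in OB-EB, at 161, 66.7 and 270, at 64.1, 41.7 and 99.7 and at 123, 68.4 and 144 CPM. Their log2 ratios of EHF over MS-LS were 0.74 (0.57 to 0.92), 0.64 (0.35 to 0.93) and 0.23 (0.006 to 0.45). *Plin2* was lowest in MS-LS, at 18.2, 22.5 and 49.6 CPM. The minimum of 100 UMIs is a sum over both classes, so a gene low in OB-EB can be counted through its level in EHF. *Mttp* and *P4hb* code for the subunits of the microsomal transfer protein that loads lipid onto apolipoprotein B. *Mttp* was at 382, 390 and 288 CPM, lowest in EHF with a log2 ratio of −0.44 (−0.61 to −0.26) over OB-EB. *P4hb* was at 281, 281 and 487, with a log2 ratio of 0.79 (0.61 to 0.97). *Apob* and *Mttp* were thus both lower in EHF, and *P4hb*, which is also a general folding enzyme, was higher. *Surf4*, a cargo receptor of the endoplasmic reticulum, was at 180, 122 and 230. In OB-EB over MS-LS 1 of 8 genes counted was lower by 2-fold, *Pla2g12b* at −1.27, with a median of −0.35, and in EHF over MS-LS 1 of 10 was higher, *Plin2* at 1.45, with a median of 0.66.

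Of 20 other plasma proteins of liver type, 10 were listed in OB-EB and 4 were counted for EHF over OB-EB, with 0 past 2-fold and a median log2 ratio of 0.84. The fibrinogen chain genes *Fgb* and *Fgg* were at 83.9, 69.2 and 138 and at 54.5, 49.2 and 80.0 CPM in MS-LS, OB-EB and EHF. *F10*, coagulation factor X, was at 17.5, 20.02 and 39.3, and it was the 1 of 4 genes past 2-fold in EHF over MS-LS, at 1.17, with a median of 0.82. These 3 were highest in EHF. *F5*, coagulation factor V, named after its values were seen, was lowest there, at 14.4 (10.4 to 19.4), 20.02 (12.8 to 29.8) and 2.68 (0.984 to 5.84). In OB-EB over MS-LS 0 of 2 were past 2-fold, with a median of −0.21. *Alb*, albumin, lies beside *Afp* on chromosome 5 and was unlisted in each table.

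Of 16 uptake receptors and cofactors, 7 were counted in OB-EB over MS-LS and 0 were past 2-fold (median −0.11), 6 in EHF over OB-EB with 1 higher (*Scarb1*, the high-density lipoprotein receptor, at 1.17; median 0.28), and 7 in EHF over MS-LS with 0 (median −0.12). Relative to the median of all genes *Scarb1* was just below 2-fold. *Dab2*, an endocytic adaptor, was at 1835, 2066 and 1540 CPM. *Cubn*, cubilin, was at 945, 651 and 836, and its partner *Amn* at 545, 556 and 634. *Dab2* was thus lowest in EHF and *Cubn* in OB-EB, while *Amn* did not differ detectably between MS-LS and OB-EB. Of 15 transcription factors of endoderm, 9 were counted in EHF over OB-EB with 1 higher by 2-fold, *Creb3l3*, a regulator of apolipoprotein genes, at 1.23 (median 0.06). Counts were 0 of 9 in OB-EB over MS-LS (median −0.41) and 0 of 10 in EHF over MS-LS (median −0.36). *Creb3l3*, named after its values were seen, was lowest in OB-EB, at 53.1, 27.5 and 64.4 CPM. Its log2 ratio was −0.95 (−1.54 to −0.40) for OB-EB over MS-LS and 0.28 (−0.06 to 0.61) for EHF over MS-LS, an interval that holds 0. *Maf* was at 133, 100 and 105, *Sox17* at 107, 88.4 and 76.9 and *Hnf4a* at 83.6, 63.4 and 90.7.

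The genes also differed between the VE-like clusters of a library. In EHF the 10 genes summed to 28681 CPM in cluster 1 (193 cells, median 5752 UMIs, led by *Cubn* and *Dab2*) and to 45252 in cluster 16 (110 cells, median 8501.5 UMIs, led by *S100g* and *Lgals2*). *Afp* was at 216 and 644 in these clusters, a log2 ratio of 1.57 (1.36 to 1.79), cluster 16 over cluster 1. *Trf* was at 57.5 and 137, with a log2 ratio of 1.25 (0.82 to 1.69). The stage differences of these genes thus depended on the cluster. *Afp* in cluster 1 was not above its OB-EB level of 247 or its MS-LS level of 282, and *Trf* in cluster 16 was not below its earlier levels of 118 and 105. The ratio was 0.86 (0.80 to 0.91) for *Rbp4*, 0.81 (0.76 to 0.85) for *Apoa1*, 0.76 (0.60 to 0.92) for *Apoa4* and 0.68 (0.64 to 0.72) for *Ttr*. *Apoe* and *Apom* were closer, at 0.44 (0.40 to 0.48) and 0.48 (0.41 to 0.54). *Apob* was at 592 and 627 with a ratio of 0.08 (−0.07 to 0.24), so its level was below those of the earlier stages in both of these clusters. *Apoc2* was at 9.04 and 16.5, from 11 and 16 UMIs.

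Cluster 29 of EHF had 30 cells with a median of 1383 UMIs, far shallower than the rest. The 10 genes summed to 37941 CPM, *Apoe* led with 11844, and *Apoc2* had 0 UMIs. *Apob* was at 208 from 10 UMIs, lower than in cluster 1 by a log2 ratio of −1.51 (−2.58 to −0.62). Leaving these cells out moved none of the counts of the 10 genes past 2-fold. In MS-LS, cluster 2 (230 cells, led by *Lgals2* and *Fabp1*) had the highest sum, 23678, against 18458 in cluster 11 (168 cells, led by *Spink1* and *Srgn*) and 15509 in cluster 14 (146 cells, led by *Cubn* and *Clic6*). *Apoc2* was highest in cluster 2, at 191 CPM against 67.0 and 94.8, and *Afp* in cluster 11, at 404 against 245 and 247. *Apob* was at 1007, 910 and 1004 in clusters 2, 11 and 14. In OB-EB, clusters 13 (167 cells) and 14 (158 cells) had sums of 20248 and 20196. *Rbp4* differed most, at 1656 and 2598, a log2 ratio of 0.65 (0.53 to 0.77), cluster 14 over cluster 13.

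**Figure D3:**
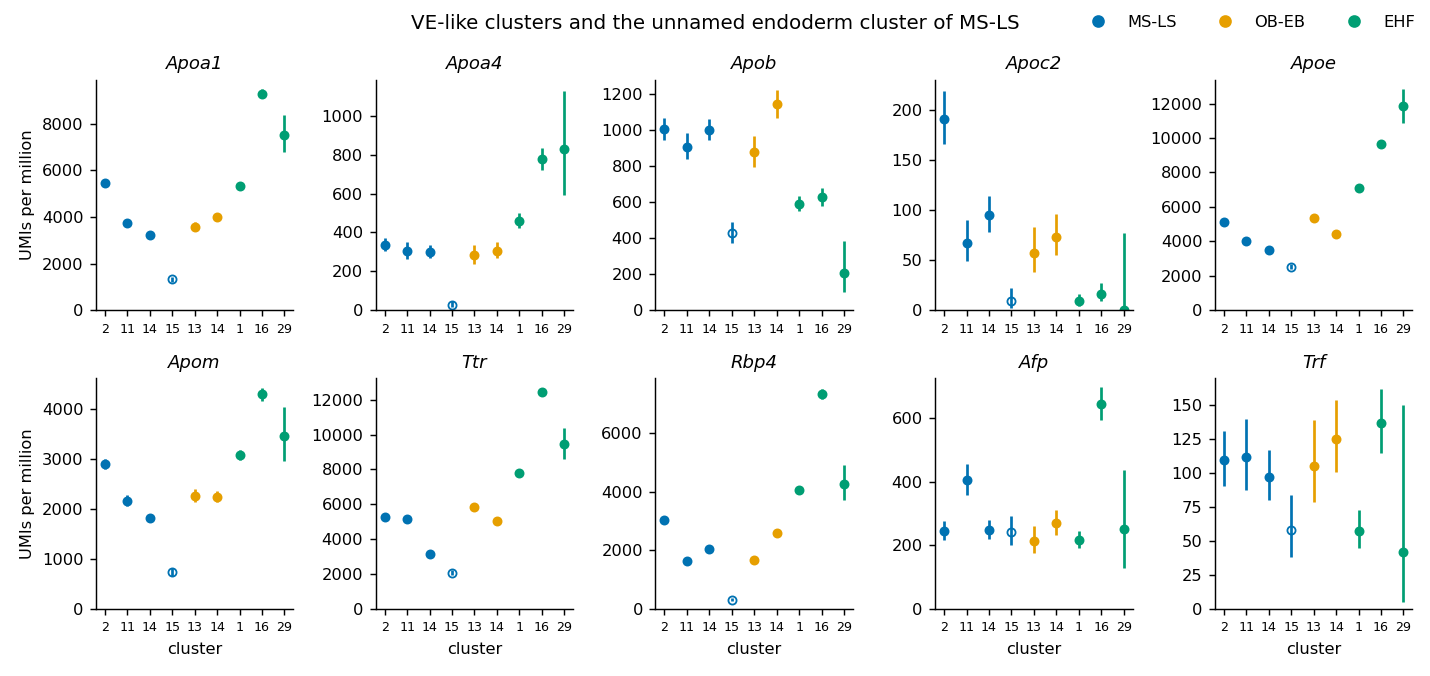
CPM of each gene in the VE-like clusters of MS-LS (2, 11 and 14), OB-EB (13 and 14) and EHF (1, 16 and 29), with the unnamed MS-LS cluster 15 as open circles; bars are 95% counting intervals. *Afp* stands at 644 in EHF cluster 16 and at 216 in EHF cluster 1, while *Apob* is at 627 and 592.

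MS-LS cluster 15 (132 cells, 3.63% of the library) scored highest for embryonic endoderm but stayed unnamed, since its leading genes, *Dkk1*, *Kitl* and *Fzd5* first, held no marker of that type and 1 of parietal endoderm, *Srgn*. It carried the VE marker list at 3202 CPM and the embryonic endoderm list at 1333, against 4620 and 239 in VE-like cells. Of its 132 cells 1 was among the highest doublet scores. The 10 genes summed to 7685 CPM, below every VE-like cluster and above every other class of MS-LS. As a percent of the VE-like level, *Apoe* was at 59.3, *Ttr* at 46.8, *Apoa1* at 31.7, *Apom* at 31.6 and *Rbp4* at 13.1. *Apoa4* and *Apoc2* had 13 and 4 UMIs, and log2 ratios of VE-like cells over cluster 15 of 3.50 (2.72 to 4.42) and 3.86 (2.49 to 5.74). *Afp* was the exception, at 242 against 282 CPM, a log2 ratio of 0.22 (−0.06 to 0.52). The genes were thus not lower in a common proportion in this cluster.

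Embryonic endoderm-like cells (160, 200 and 75 cells in MS-LS, OB-EB and EHF) held little of these genes. Summed without *Apoe*, the other 9 were at 159, 298 and 507 CPM, against 15000, 15431 and 27764 in VE-like cells. Outside the endoderm these 9 were at 157, 182 and 176 CPM, so the MS-LS level was close to that of the cells outside. Of the embryonic endoderm-like cells 14, 18 and 5 were among the highest 5% of doublet scores of their libraries, and their part in these levels was not tested. The OB-EB class joins unlike clusters, with all 10 genes at 376 CPM (326 to 432) in cluster 16 (142 cells) and 1103 (931 to 1299) in cluster 24 (58 cells), and *Apoa1* at 39.1 (24.2 to 59.8) and 207 (136 to 301). The log2 ratio of VE-like over embryonic endoderm-like cells was 6.35 (5.92 to 6.82) for *Apoa1* in MS-LS, 5.74 (5.33 to 6.18) in OB-EB and 6.84 (6.30 to 7.44) in EHF. For *Ttr* it was 6.49 (6.05 to 6.97), 5.83 (5.47 to 6.21) and 5.33 (5.05 to 5.61). *Apoe* stood closer, with 4.95 (4.68 to 5.23), 4.44 (4.21 to 4.69) and 3.02 (2.88 to 3.16). In EHF embryonic endoderm-like cells *Apoe* reached 1026 CPM (933 to 1126), and 88.0% of cells had a UMI of it. Most EHF cells outside the endoderm also had one, as given below, so this share is not a count of expressing cells. The VE marker list was also higher in these EHF cells, at 1350 CPM against 653 in MS-LS and 475 in OB-EB, with 11 of 11 listed genes present. So was the parietal endoderm list, at 781 against 124 and 162, and the part of either list in the *Apoe* level was not tested. With 0 UMIs of *Trf* in MS-LS embryonic endoderm-like cells, VE-like cells were higher by a log2 ratio of at least 4.88, taking 3 UMIs in place of 0. The 64 parietal endoderm-like cells of EHF had *Apoe* at 209 CPM, *Ttr* at 118 and *Apoa1* at 67.7, and 0 UMIs of *Apoc2*, *Afp* and *Trf*.

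The second comparison asks how much of each gene was found in cells outside the endoderm (2799, 3469 and 3022 cells). Summed, the 10 genes were at 352 CPM in MS-LS (342 to 362), 358 in OB-EB (347 to 370) and 510 in EHF (500 to 521). Without *Apoe* the sums were 157 (151 to 164), 182 (174 to 190) and 176 (170 to 182). *Apoe* thus made up most of the sum in EHF and of its difference from the earlier stages. For the 9 genes without *Apoe* the level outside was a median of 1.11% of the VE-like level in MS-LS, 1.09% in OB-EB and 0.674% in EHF. Free RNA in the droplets can give such levels to cells that do not express a gene, and its part was not tested.

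The abundant genes other than *Apoe* lay in a limited range outside the endoderm, though not at 1 proportion. In MS-LS *Apoa1* was at 1.16% of its VE-like level (1.07 to 1.25), *Apom* at 1.07% (0.957 to 1.19), *Ttr* at 0.951% (0.873 to 1.03) and *Rbp4* at 0.851% (0.751 to 0.961). In OB-EB these were 1.33% (1.21 to 1.45), 1.43% (1.27 to 1.61), 1.09% (1.003 to 1.19) and 0.893% (0.771 to 1.03). The intervals of *Apoa1* and *Rbp4* were apart in both libraries. In EHF these were 0.674% (0.628 to 0.722), 0.662% (0.599 to 0.731), 0.590% (0.553 to 0.628) and 0.602% (0.553 to 0.655). Within classes of EHF the same 4 genes lay between 0.552% and 0.736% in mesoderm-like cells, 0.586% and 0.663% in epiblast and ectoderm-like cells and 0.539% and 0.873% in blood and endothelium-like cells. The range was wider in the 43 node-like cells, 0.161% to 1.32%, and in epiblast and ectoderm-like cells of OB-EB, 0.896% to 1.57%. *Apob* was lower outside in EHF, at 4.85 CPM, than in MS-LS and OB-EB, at 11.1 and 12.0, in the same order as in VE-like cells. *Apoc2* lay above this range, with 3.34% (2.48 to 4.42) of its VE-like level outside in MS-LS and 3.49% (2.11 to 5.56) in OB-EB. In EHF it had 6 UMIs outside, and the interval of its 2.84% (0.958 to 7.01) lay above those of these 4 genes but overlapped those of *Apob*, *Afp* and *Trf*.

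*Apoe* had the highest value outside in each library, with intervals that overlapped those of *Apoc2*. It was at 4.61% (4.42 to 4.81) of its VE-like level in MS-LS, 3.69% (3.50 to 3.89) in OB-EB and 4.02% (3.90 to 4.14) in EHF. By class the order of these genes varied. In MS-LS *Apoc2* was at 2.09% (0.897 to 4.17; 8 UMIs) in Exe ectoderm-like cells, below *Apoe*, and at 4.97% (3.04 to 7.71; 21 UMIs) in epiblast and ectoderm-like cells, where the intervals overlapped. *Apoe* differed between classes beyond counting error. In MS-LS it stood at 11.9% (10.2 to 13.7) in blood and endothelium-like cells, 7.15% (6.69 to 7.65) in Exe ectoderm-like cells and 3.28% (2.98 to 3.59) in epiblast and ectoderm-like cells. In OB-EB the same classes were at 7.08% (5.99 to 8.32), 4.83% (4.20 to 5.54) and 3.00% (2.70 to 3.33). EHF had 4.79% (4.45 to 5.14), 5.56% (5.28 to 5.85) and 2.80% (2.58 to 3.02). Exe ectoderm-like cells were thus above epiblast and ectoderm-like cells in each library, and so were blood and endothelium-like cells as a class. In EHF that class was uneven: *Apoe* was at 880 CPM (804 to 962) in cluster 22, led by *Kdr*, and at 249 (214 to 288), 141 (111 to 178) and 237 (169 to 323) in clusters 10, 20 and 23, which hold *Gata1* among their leading genes. The other abundant genes did not follow: in MS-LS blood and endothelium-like cells *Apoa1*, *Apom*, *Ttr* and *Rbp4* lay between 0.454% and 1.26%. Node-like cells of EHF had *Apoe* at 6.67% (5.39 to 8.16).

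*Apoe* was also compared between single clusters outside the endoderm, taking the 17, 21 and 23 clusters of at least 50 cells. Its highest level was 502 CPM in MS-LS cluster 20 (77 cells, led by *Lmo2*, *Gadd45g* and *Fli1*), 339 in OB-EB cluster 17 (140 cells, led by *Lmo2*, *Fli1* and *Gadd45g*) and 880 in EHF cluster 22 (86 cells, led by *Kdr*, *Fli1* and *Flt1*). The median over these clusters was 151, 162 and 249. In each library the highest cluster was thus one led by genes of blood and vessel progenitors. In MS-LS the next was Exe ectoderm-like cluster 7, at 347 (309 to 390), while in OB-EB and EHF others came close. Unnamed cluster 12 of OB-EB was at 333 (277 to 397), and unnamed cluster 21 of EHF, led by *Mef2c*, *Myl7* and *Rgs5*, at 746 (683 to 813). *Ttr* had a highest level of 60.9, 102 and 74.4 and a median of 40.2, 65.4 and 53.6 over the same clusters. The smaller Exe ectoderm-like clusters 23 of MS-LS (24 cells) and 28 of EHF (36 cells) were left out by this limit, with *Ttr* at 172 (121 to 239; 36 UMIs) and 129 (58.9 to 244; 9 UMIs). The MS-LS value lay above the clusters of its library, while the EHF interval overlapped that of cluster 10.

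**Figure D4:**
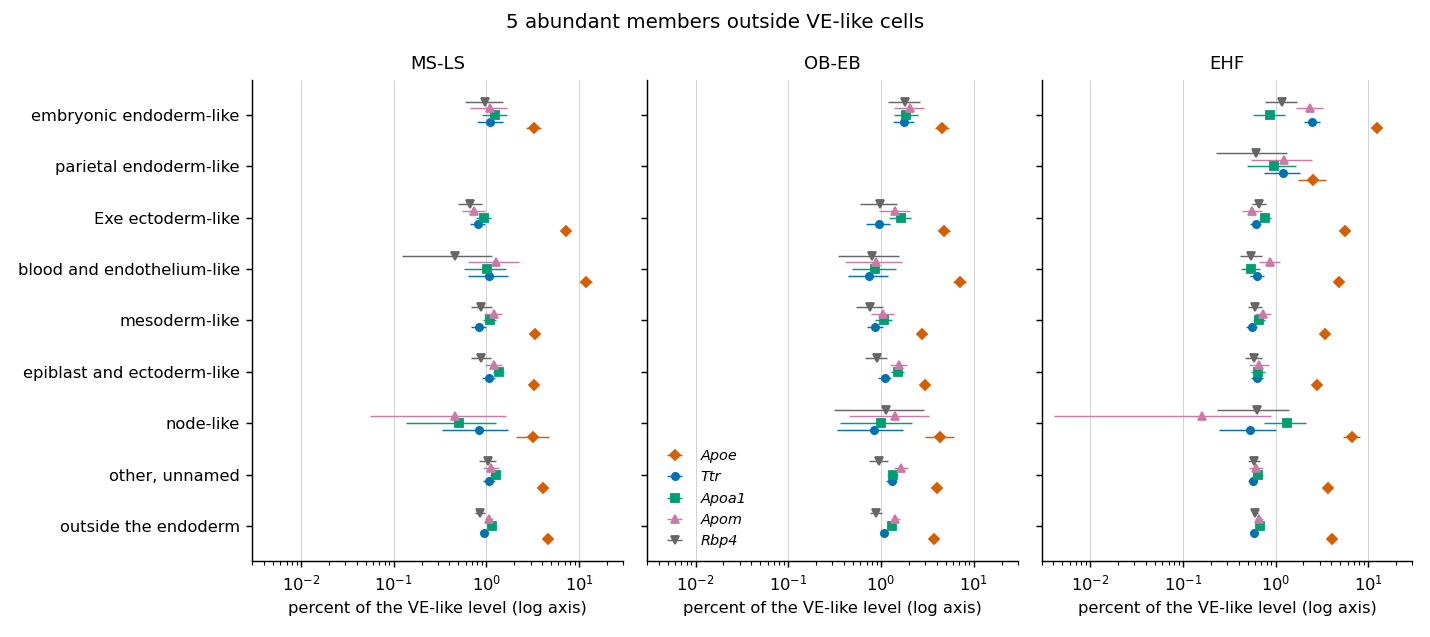
Level of *Apoe*, *Ttr*, *Apoa1*, *Apom* and *Rbp4* in each class as a percent of the level in VE-like cells of the same library (log axis). Points are pooled levels and bars 95% counting intervals; *Apoe* lies above the other 4 genes, at 4.61% against 0.951% for *Ttr* over all MS-LS cells outside the endoderm.

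Shares of cells with a UMI were taken after each cell was thinned to 2000 UMIs, which left out 16, 43 and 27 VE-like cells and 197, 966 and 269 outside. The median depths before thinning were 4631, 3191 and 6432 UMIs in VE-like cells and 4194, 2547 and 5604 outside. *Apoe* had a UMI in 99.6%, 98.9% and 99.3% of thinned VE-like cells and in 29.6%, 28.7% and 43.3% of thinned cells outside, where the unthinned shares were 52.0%, 36.9% and 68.3%. For *Ttr* these were 99.1%, 98.6% and 99.7% in VE-like cells and 8.49%, 10.2% and 12.0% outside, with 17.4%, 14.9% and 26.9% unthinned outside. For both genes the shares in VE-like cells are close to the upper limit and cannot order the genes or the stages. *Apoc2* had a UMI in 23.5%, 11.3% and 2.29% of thinned VE-like cells, against 0.922%, 0.559% and 0.145% outside. Its unthinned shares in VE-like cells were 45.6%, 20.6% and 7.51%. In EHF, *Apoc2* was thus at a level of few cells with a UMI.

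Few cells outside the endoderm held the genes in quantity. The 9 genes without *Apoe* took more than 0.5% of the UMIs of 1 cell in MS-LS, 3 in OB-EB and 0 in EHF, a limit chosen after the values were seen. They had no UMI in 50.6%, 61.3% and 42.0% of the cells outside. In VE-like cells their median share was 1.39%, 1.34% and 2.56% of UMIs.

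Within VE-like cells thinned to 2000 UMIs, the counts of the abundant genes were positively correlated. Spearman correlations over 528, 282 and 306 cells were taken for the 15 pairs of *Apoa1*, *Apob*, *Apoe*, *Apom*, *Ttr* and *Rbp4*. The cells of a library share their pool and depth, so these are descriptions. They also come from clusters that differ in level, and the part of this in the correlations was not tested. The median was 0.361 in MS-LS, 0.521 in OB-EB and 0.510 in EHF. *Ttr* with *Apoa1* was the highest pair in each, at 0.596, 0.637 and 0.633. The lowest pair held *Apob* in each library, at 0.0573 with *Apoe* in MS-LS, 0.00345 with *Ttr* in OB-EB and 0.110 with *Apoa1* in EHF. Its highest pair among these genes was at 0.235 with *Rbp4* in MS-LS, 0.0829 with *Apom* in OB-EB and 0.178 with *Apom* in EHF. The lowest pair without *Apob* was *Rbp4* with *Apoe* in each library, at 0.221, 0.410 and 0.340. In MS-LS this pair was thus below *Rbp4* with *Apob*. *Apob* is also the least abundant of these genes, with a mean of 2.03, 2.20 and 1.35 UMIs per thinned cell against 8.53, 7.55 and 13.4 for *Apoa1*. Low counts lower a correlation, and their part was not tested.

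Over the 80 clusters of the 3 libraries, the genes whose level was most like the sum of the 10 were ranked among 7026 genes. *Ctsh*, a lysosomal protease gene, came first with a Pearson correlation of 0.970, followed by *Amn* (0.943), *Slc39a5* (0.942), *Lgmn* (0.938), *Smlr1* (0.938), *Pla2g12b* (0.937), *Gipc2* (0.936), *Dpp4* (0.935), *Lgals2* (0.932) and *2610528J11Rik* (0.931). *Amn*, *Slc39a5*, *Pla2g12b* and *Dpp4* are markers used to name VE-like clusters. *Ctsh* was at 609, 455 and 1008 CPM in VE-like cells of MS-LS, OB-EB and EHF, and at 8.44, 4.46 and 8.16 outside the endoderm.

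Some of the 10 genes are neighbours in the genome (GENCODE annotation of GRCm38). *Apoa1* (chr9:46228580-46230466) and *Apoa4* (chr9:46240696-46243459) lie on the plus strand with *Apoc3* between them on the minus strand, and all 3 were highest in EHF. *Apoc2* (chr7:19671579-19677941) and *Apoe* (chr7:19696109-19699188) lie on the minus strand with *Apoc4* and *Apoc1* between them. The levels in this group did not share an order: *Apoe* was highest in EHF, *Apoc2* was lowest there, and *Apoc1* had its highest level in OB-EB. *Apoc4* was also lowest in EHF, though its interval there overlapped those of the earlier stages. *Trf* (chr9:103204001-103230444) is on the same chromosome as *Apoa1* but far from it, and *Apob* (chr12:7977648-8016835), *Apom* (chr17:35128997-35132050), *Rbp4* (chr19:38116629-38125281), *Afp* (chr5:90490737-90508907) and *Ttr* (chr18:20665280-20674321) lie on other chromosomes.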

How the data were processed

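The authors deposited UMI counts per gene and cell without normalization, as whole numbers, for 10x Genomics Chromium 3′ libraries of 3 stages. The submitters' processing notes name Cell Ranger 3.0.2, R 3.6.1, Seurat 3 and GRCm38. Cells with few genes or UMIs or many mitochondrial transcripts had been removed before deposit, and all deposited cells were used.

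Cells of each library were clustered in Seurat 5.3.0 (R 4.3.3) at a resolution of 4.5, with 50 principal components of the 2000 most variable genes after log normalisation to 10000 UMIs. The 10 genes, the other apolipoproteins, the other plasma proteins and the reporter could not enter the variable genes. Each cluster was named after the type with the highest mean log2 ratio of its markers (pseudocount 10 counts per 1000000 UMIs, CPM) if at least 3 markers had UMIs in 20% of its cells and 2 times the level elsewhere, the margin over the next type was 0.2, and its 10 leading genes (with UMIs in 25% of cells) did not hold more markers of a different type than of its own. No cluster could be called macrophage-like, since at most 1 of the 7 markers was listed, and their sum in VE-like cells was 0.685, 0 and 0 CPM. Names rebuilt this way may differ from the study's.

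UMIs were summed over cells of a class, and each stage was 1 library, so no test was made and no p-value is given. Intervals are at 95%, and a sum of 0 was set against a floor of 3 UMIs. Ratios between stages are given for genes with at least 100 UMIs over both classes. Doublets were kept: Scrublet (scanpy 1.11.5) marked 9, 0 and 14 cells by its automatic threshold, so the 5% with the highest scores (182, 200 and 175 cells) were left out as an alternative. Ratios and intervals were computed with scipy 1.17.1, numpy 2.4.6 and pandas 2.3.3 under Python 3.11.15, figures were drawn with matplotlib 3.10.9, and the ratio step was tested on simulated data.

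The genes named are the 10 members, the 3 genes of each other list with the most UMIs in VE-like cells, and the 10 genes most like the sum by the correlation of log2 levels over clusters. Others were named after their values were seen, where a count was small or a cluster was described. The 10 genes, the lists and the markers were chosen with earlier results of these data known.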

Additional observations from a re-analysis of the deposited data

How the results depend on the processing

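Stage ratios whose interval left out 0 mostly kept their direction under the alternatives, while sums moved by small amounts that exceed counting error. Of 310 log2 ratios of single genes recomputed under 11 alternatives, 234 stayed within the interval of the reported value and 76 moved outside it. A change of sign was counted as a reversal only where the reported ratio was past 2-fold, and 0 such ratios reversed. Of the 23 reported ratios whose interval left out 0, 22 kept their sign under every alternative; the exception was *Apoa1* in OB-EB over MS-LS, at 0.02 with MS-LS cluster 15 added. Of the ratios whose interval held 0, *Apoa4*, *Apom* and *Rbp4* in OB-EB over MS-LS took the other sign under 5 of 10 alternatives each. Reported sums in VE-like cells were 19230, 20217 and 36083 CPM in MS-LS, OB-EB and EHF, and 352, 358 and 510 outside the endoderm.

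Values that moved were as follows, by planned setting. At resolution 2 MS-LS had 399 VE-like cells in place of 544, with a sum of 19505. There 1 gene (*Apoc2*) was lower by 2-fold in OB-EB over MS-LS, against 3.05% of all genes, where the reported count was 0. At resolution 8 OB-EB had 269 VE-like cells in place of 325, and MS-LS had 504. The sums were 19842 in MS-LS and 21385 in OB-EB. In EHF over OB-EB 1 gene (*Rbp4*), not 2, was higher, against 8.77% of all genes. With all genes allowed among the variable genes MS-LS was at 19607. Cells with at least 2000 UMIs were clustered and named anew, so that depth and class membership changed together (507, 250 and 306 VE-like cells). In them the sums were 19641 in MS-LS and 21348 in OB-EB, and 385 and 346 outside the endoderm. At this setting 1 gene was higher in EHF over OB-EB, against 8.87% of all genes. Without the highest Scrublet scores the sums were 19683, 20657 and 37193, and 340 outside in MS-LS. With a gate on at least 4 VE markers the sums were 18205, 20509 and 33197. With it 1 gene was higher in EHF over OB-EB, against 9.37% of all genes. As means of the level of each cell the sums were 19614 in MS-LS and 35359 in EHF, and 364 and 394 outside in MS-LS and OB-EB. Here 1 gene (*Apoc2*) was lower in OB-EB over MS-LS, against 3.27% of all genes. Without the 10 genes in the total the sums were 19607, 20634 and 37433, which follows from the smaller total. In EHF over MS-LS 3 genes (*Apoe*, *Ttr* and *Rbp4*), not 2, were then higher, against 3.73% of all genes. With a minimum of 20 UMIs the counts of the 10 genes held, while the shares of all genes past 2-fold were 3.63% higher and 6.78% lower in OB-EB over MS-LS (2.24% and 3.06% reported), 14.4% and 6.76% in EHF over OB-EB (9.43% and 5.29%) and 7.29% and 6.04% in EHF over MS-LS (3.42% and 3.99%). With a minimum of 500 UMIs *Apoc2* was not counted. Of the 10 genes 0 were then lower in EHF over OB-EB or over MS-LS, against 5.0% and 3.78% of all genes.

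Settings chosen after seeing the data were leaving out EHF cluster 29, adding MS-LS cluster 15 and subtracting the median of all genes. Leaving out cluster 29 kept the counts of the 10 genes and gave an EHF sum of 36042, within the reported interval. Adding cluster 15 gave 17639 in MS-LS and 4 genes higher in EHF over MS-LS, against 4.20% of all genes, where 2 were reported. Subtracting the median left 1 gene (*Rbp4*) higher in EHF over OB-EB, against 5.34% of all genes. For the other settings the cause was not tested.

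No paired analysis was possible because each stage is 1 library and no test was made. Pooled embryos, dissection, depth, time since tamoxifen and stage cannot be told apart. *Apoc2* in EHF rests on 27 UMIs and *Trf* on 205, which limits both, and levels near 1% of the VE-like level outside the endoderm cannot be assigned to the cells that hold them.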
